A study of Mus musculus with 12 samples.

Results

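The genes described here are 141 members of the families of transcription factors that specify blood and other lineages, with the ETS family left out, of 9984 mouse genes measured by 1 probe set each. Each was taken by its gene symbol and not by a measured value of its own, but the set was chosen with earlier results of these data known. The 15 families were the Zbtb genes (28 members), homeobox genes (26), Fox genes (22), Sox genes (14), Nr nuclear receptors (14), Hes, Hey and Id genes (10), Klf genes (8), Cebp genes (4), Gata genes (3), Tcf and Lef genes (3), the Tal, Lyl1 and Lmo group (3), Runx genes (2), Ikzf and Bcl11 genes (2), Nfi genes (1) and Gfi1 (1). The Tal, Lyl1 and Lmo group held Tal2, Lmo1 and Lmo3, the Runx genes Runx1t1 and Runx3, and the Ikzf and Bcl11 genes Ikzf2 and Ikzf5. No Lyl1, Bcl11, Mecom or Myb gene was among the members. Tal1, Lmo2, Runx1, Ikzf1, Gata2 and Meis1 were also absent, so counts over the members do not cover these blood factors. The label fitted the annotation with exceptions that a symbol cannot show. RefSeq listed 137 of the 141 as protein coding, 5 symbols named opposite-strand or antisense transcripts, Runx1t1 encodes a corepressor and not a DNA-binding Runx protein, and Tcf20 encodes a coregulator outside the Tcf and Lef group of Wnt factors.

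The study asked what the ETS factor Erg does in blood stem cells, and profiled 12 samples of sorted bone marrow cells from male C57Bl/6 mice, backcrossed for at least 6 generations, on expression arrays. There were 3 arrays in each of 4 groups: Erg -/- multipotent progenitors (MPPs), Erg fl/fl MPPs, Erg +/- hematopoietic stem cells (HSCs) and Erg +/+ HSCs. Erg -/- MPPs came from Erg fl/fl mice with an Mx1-Cre allele, an interferon-inducible Cre that also acts outside blood cells, and both MPP groups received 5 injections of pIpC, the inducer of Mx1-Cre, with cells sorted 2 weeks from the first injection. Erg +/- mice came from a cross of the floxed allele with a general Cre deleter, so that every tissue carried 1 Erg allele, and their sample titles call them knockouts. The labels name no pIpC treatment for HSC mice, so population, treatment and floxed allele cannot be told apart between MPPs and HSCs, nor can loss of Erg and presence of Mx1-Cre between the MPP groups. HSCs were sorted as Lineage- Sca-1+ c-kit+ CD150+ CD48- cells. For MPPs one label gives Lineage- Sca-1+ c-kit+ CD150- cells and another gives the HSC gate. The labels do not tie the 3 arrays of a group to separate animals. The p-values therefore rest on the spread among arrays, and that spread may be technical. Ages are not given in the sources used here.

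Lineage transcription factors bind DNA in combinations, and the set a cell contains helps decide which blood lineages it can form. HSCs are known to hold low levels of factors of several lineages at once, and progenitors raise those of the lineages they enter while others are shut off. Hox and Meis proteins, Gata factors, Runx proteins and the basic helix-loop-helix factors are known to bind with ETS proteins such as Erg at many blood enhancers, whereas Id proteins lack a DNA-binding region and hold basic helix-loop-helix partners away from DNA.

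Promoter sequences are shown for Lef1, a member that rose in MPPs, and for Hoxa10 and Runx3, which led the higher and lower members in Erg -/- MPPs. Each is 300 bases of the coding strand, 250 before and 50 after the most upstream RefSeq transcript start in GRCm38.p6. Capitals mark AGGAAG or CGGAAG, letters of the core to which ETS proteins bind, searched on both strands, so that CTTCCT or CTTCCG is the same match on the other strand. The 2 words differ in their first letter, and matches that overlap are each counted.
Lef1, chr3:131110047-131110346, plus strand: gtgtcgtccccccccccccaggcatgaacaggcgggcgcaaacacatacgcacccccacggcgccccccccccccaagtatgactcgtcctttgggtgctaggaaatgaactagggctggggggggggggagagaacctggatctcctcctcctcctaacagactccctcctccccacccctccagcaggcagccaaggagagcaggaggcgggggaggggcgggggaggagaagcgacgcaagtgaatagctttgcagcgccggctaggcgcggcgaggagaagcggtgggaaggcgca
Hoxa10, chr6:52240805-52241104, minus strand: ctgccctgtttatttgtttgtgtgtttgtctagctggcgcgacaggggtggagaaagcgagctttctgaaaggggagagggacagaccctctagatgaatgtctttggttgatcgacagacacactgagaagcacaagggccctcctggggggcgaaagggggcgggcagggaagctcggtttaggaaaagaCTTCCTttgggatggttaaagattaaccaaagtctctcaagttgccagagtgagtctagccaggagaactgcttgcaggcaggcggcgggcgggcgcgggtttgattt
Runx3, chr4:135120395-135120694, plus strand: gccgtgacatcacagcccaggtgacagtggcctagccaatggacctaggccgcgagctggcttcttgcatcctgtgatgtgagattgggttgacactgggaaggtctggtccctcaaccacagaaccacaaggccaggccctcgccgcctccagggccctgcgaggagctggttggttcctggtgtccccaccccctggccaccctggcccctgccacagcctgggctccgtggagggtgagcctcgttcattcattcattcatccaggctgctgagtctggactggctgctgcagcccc
The Hoxa10 window held 1 match, and the windows of Lef1 and Runx3 held 0 matches. Of the 105 members with a promoter in the RefSeq table, 36 held at least 1 match (34.3%), against 12528 of 27025 genes in all (46.4%). A match describes letters in these windows and is not a bound site.

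Median log2 values lay between 5.41 and 5.54 on the 12 arrays. The interquartile range was 2.50 to 2.64 on 5 of the 6 MPP arrays and 2.84 on Erg fl/fl MPP replicate 1, against 2.83 to 2.99 on the 6 HSC arrays, so the spread of values differed between the populations. Its part in the population differences was read only by repeating the quantile normalisation. Pairs of arrays in a group correlated at 0.953 to 0.974 across genes. The level of Erg itself is not analysed here, and the deletion was not checked. The mean of 3 measured HSC identity genes of 14 listed (Mmrn1, Tgm2 and Nupr1) was 5.30 to 5.90 on MPP arrays and 8.72 to 9.23 on HSC arrays, and that of 3 MPP identity genes of 10 listed (Flt3, Il12a and Igll1) was 7.15 to 8.18 on MPP arrays and 5.50 to 6.53 on HSC arrays. Both list means separated the populations as labelled, but not every gene did. Il12a stood at 0.52 in Erg fl/fl MPPs over Erg +/+ HSCs (adjusted p = 0.419). It averaged 6.32 in Erg -/- MPPs, below Erg +/- HSCs (6.71) and Erg +/+ HSCs (6.92). Igll1 averaged 7.92 in Erg fl/fl MPPs but 6.04 in Erg -/- MPPs, against 5.68 in Erg +/- HSCs and 5.53 in Erg +/+ HSCs. All values below are deposited log2 expression values, differences are in log2 units, and p-values come from limma fitted to all 9984 genes and 12 arrays with Benjamini-Hochberg adjustment (threshold 0.05, two-sided). A value of 1 probe set cannot be ranked against that of another gene. In sorted pools, fewer cells of a type and less RNA per cell cannot be told apart.

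Between control MPPs and HSCs, 3 of the 141 members changed. Lef1 rose in Erg fl/fl MPPs, and Sox18 and Runx1t1 fell. The same test passed 1.28% of all genes, 0.651% higher and 0.631% lower. The other members did not pass, among them the blood lineage factors Cebpa, Gata1, Klf1, Hoxa9 and Gfi1. With Erg fl/fl MPP replicate 2 left out 0 members passed, and with any other single array of these groups left out 2 passed.

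Sox18 encodes a Sox factor known for its part in blood and lymphatic vessel formation. Its log2 values were 5.97, 5.92 and 5.98 in Erg -/- MPPs, 5.48, 5.44 and 5.46 in Erg fl/fl MPPs, 5.74, 5.88 and 6.19 in Erg +/- HSCs, and 6.55, 6.63 and 7.50 in Erg +/+ HSCs. The Erg +/+ HSC arrays were above all others, the Erg fl/fl MPP arrays below all others, and the 2 groups with reduced Erg lay between them and overlapped each other. In Erg fl/fl MPPs Sox18 was 2.7-fold lower than in Erg +/+ HSCs, a log2 difference of -1.43 (SE 0.230, adjusted p = 0.0114). Between Erg -/- MPPs and Erg +/- HSCs it stood at 0.02 (95% interval -0.48 to 0.52).

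Runx1t1 encodes a corepressor known as the fusion partner of RUNX1 in a human leukaemia. It measured 5.08, 4.64 and 4.66 in Erg -/- MPPs, 4.50, 4.52 and 5.11 in Erg fl/fl MPPs, 4.93, 5.31 and 4.66 in Erg +/- HSCs, and 6.07, 6.53 and 5.72 in Erg +/+ HSCs. The 3 Erg +/+ HSC arrays stood above the other 9, which overlapped across their 3 groups. Runx1t1 fell by 1.40 in Erg fl/fl MPPs against Erg +/+ HSCs (SE 0.257, adjusted p = 0.0245). Without replicate 1 or 2 of either group Runx1t1 no longer passed, with adjusted p-values up to 0.0851.

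Of 16 listed endothelial and stromal genes 6 were measured, and 1 of them passed between the controls, as Sox18 and Runx1t1 did. Sparc, a matrix protein gene, fell by 1.40 in Erg fl/fl MPPs against Erg +/+ HSCs (adjusted p = 0.0351) and fell by 2.08 in Erg +/- HSCs against Erg +/+ HSCs (adjusted p = 0.0401), and is named here after its values were seen. Cxcl12 stood at -1.61 and -1.75 in the same comparisons and reached 9.09 on 1 Erg +/+ HSC array, Kdr at -0.53 and -0.52, Pecam1 at -0.17 and -0.47, Pdgfrb at 0.12 and -0.67, and Vim at 0.12 and -0.24, and these 5 did not pass. The mean of the 6 was 6.43 to 6.66 in Erg -/- MPPs, 6.50 to 6.78 in Erg fl/fl MPPs, 6.15 to 6.31 in Erg +/- HSCs, and 6.94 to 7.45 in Erg +/+ HSCs. This mean was highest in Erg +/+ HSCs, as Sox18 and Runx1t1 were. It was lowest in Erg +/- HSCs, and the averages of Sox18 and Runx1t1 were lowest in Erg fl/fl MPPs. None of the 6 was listed at 0. The part of such cells in the values of Sox18 and Runx1t1 was not tested.

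Lef1 encodes a partner of beta-catenin in Wnt signalling that is known for its role in early lymphocytes. Its values were 5.63, 5.54 and 5.45 in Erg -/- MPPs, 5.65, 5.98 and 5.85 in Erg fl/fl MPPs, 5.47, 5.05 and 5.25 in Erg +/- HSCs, and 4.59, 5.16 and 5.03 in Erg +/+ HSCs. The Erg fl/fl MPP arrays were above all others, Erg -/- MPPs overlapped with Erg +/- HSCs, and these with Erg +/+ HSCs. Lef1 rose by 0.90 in Erg fl/fl MPPs over Erg +/+ HSCs (SE 0.186, adjusted p = 0.0369). It no longer passed without Erg fl/fl MPP replicate 2 or 3 or Erg +/+ HSC replicate 1 or 3, with adjusted p-values up to 0.124, nor after repeated quantile normalisation or centring of arrays. In Erg -/- MPPs over Erg +/- HSCs Lef1 stood at 0.29 (adjusted p = 0.447).

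**Figure D1:**
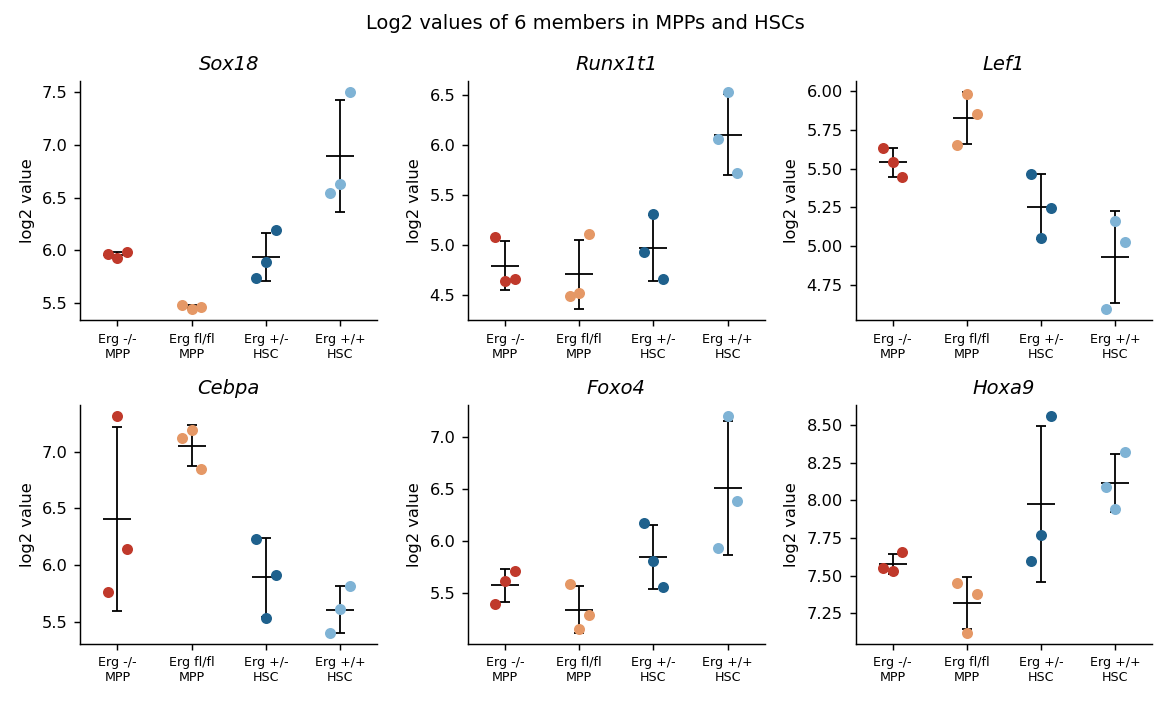
Log2 values of Sox18, Runx1t1, Lef1, Cebpa, Foxo4 and Hoxa9 on each array, by group (n = 3 each). Points are arrays, the wide bar is the group mean and whiskers are the SD. Sox18 and Runx1t1 are highest on the Erg +/+ HSC arrays, and Lef1 is highest on the Erg fl/fl MPP arrays.

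Cebpa, which drives commitment to granulocytes and monocytes, measured 5.76, 7.32 and 6.14 in Erg -/- MPPs, 7.12, 7.19 and 6.84 in Erg fl/fl MPPs, 6.23, 5.53 and 5.92 in Erg +/- HSCs, and 5.40, 5.61 and 5.81 in Erg +/+ HSCs. The Erg fl/fl MPP arrays lay apart from both HSC groups, while the Erg -/- MPP arrays ran from within the HSC range to above all Erg fl/fl MPP arrays, with an SD of 0.812 against 0.184 in Erg fl/fl MPPs. Its difference of 1.45 in Erg fl/fl MPPs over Erg +/+ HSCs (SE 0.330) was the largest positive one of any member, with an adjusted p of 0.0536. Cebpa passed under 4 of 16 alternative settings. Some markers of basophils and B cells were also highest in Erg fl/fl MPPs. The mean of 4 measured mast cell and basophil genes of 7 listed was 4.87 to 5.27 in Erg -/- MPPs, 5.69 to 6.59 in Erg fl/fl MPPs and 4.75 to 5.01 in HSCs of both genotypes, and 1 gene carried most of it. Mcpt8, a basophil protease gene named here after its values were seen, rose by 4.13 in Erg fl/fl MPPs over Erg +/+ HSCs (adjusted p = 0.000242) and fell by 3.54 in Erg -/- MPPs against Erg fl/fl MPPs (adjusted p = 0.00290). Ms4a2 (0.94 in Erg fl/fl MPPs over Erg +/+ HSCs), Hdc (0.45) and Il6ra (0.02) did not pass. The mean of 5 B cell genes of 8 listed was 4.57 to 5.58 in Erg -/- MPPs, 6.24 to 6.59 in Erg fl/fl MPPs, 4.48 to 5.10 in Erg +/- HSCs and 4.46 to 5.38 in Erg +/+ HSCs. Of the 5, Vpreb1 and Igll1 passed in both comparisons of Erg fl/fl MPPs, and Cd79a, Pax5 and Ighm in neither. The mean of 3 mature myeloid genes of 8 listed was 5.94 to 6.19 in Erg -/- MPPs, 5.82 to 6.30 in Erg fl/fl MPPs, 6.01 to 6.46 in Erg +/- HSCs and 5.49 to 6.30 in Erg +/+ HSCs, and so did not separate the groups. The part of such cells in the values of Cebpa and Lef1 was not tested.

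Below the threshold, the groups of control MPPs and HSCs did not overlap for 46 of the 141 members, 28 higher and 18 lower in Erg fl/fl MPPs, against 27% of all genes (18.5% higher and 8.54% lower). By unadjusted p under 0.05 there were 40 members, 22 higher and 18 lower, against 22.3% of all genes (14.4% higher and 7.91% lower). Foxn2 stood at 0.94 (adjusted p = 0.0571) and Zbtb18, a repressor known from brain development, at 0.86 (adjusted p = 0.0821). Gata5, a factor of heart and gut development, stood at 0.65, the orphan nuclear receptor gene Nr6a1 at 0.69, Foxl1, known from the gut mesenchyme, at 0.69, and Heyl, a repressor induced by Notch, at 0.46. The adjusted p-values of these last 4 were 0.0996 or above.

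Foxo4 and Hoxa9 were among the lower members whose groups did not overlap. Foxo4, a forkhead factor that growth factor signalling holds out of the nucleus, measured 5.58, 5.14 and 5.28 in Erg fl/fl MPPs, and 5.93, 7.21 and 6.39 in Erg +/+ HSCs. Its difference was -1.17 (SE 0.284, adjusted p = 0.0637). Hoxa9, which sustains HSC renewal, measured 7.45, 7.12 and 7.38 in Erg fl/fl MPPs, and 8.09, 7.94 and 8.32 in Erg +/+ HSCs, a difference of -0.80 (SE 0.231, adjusted p = 0.0993). In both genes each Erg +/+ HSC array exceeded each Erg fl/fl MPP array, and neither gene passed. Foxj3 stood at -0.97 (adjusted p = 0.0737), Zbtb24, mutated in a human immunodeficiency, at -0.79 (adjusted p = 0.0941), Zbtb20, a repressor known from liver and plasma cells, at -0.86 (adjusted p = 0.107), and Id2, an inhibitor of E proteins, at -0.70 (adjusted p = 0.108).

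The median difference in Erg fl/fl MPPs over Erg +/+ HSCs was 0.12 over the members and 0.12 over all genes, and 29 members differed by more than 0.5 in either direction (20.6%, against 23.8% of all genes). A positive difference was found for 94 of 141 members (66.7%, against 62.4% of all genes), and for 77 (54.6%) both after the quantile normalisation was repeated (against 53.9% of all genes) and after arrays were centred on their medians (against 52.7%). The median also moved with signal, read in 4 bands of equal gene number. In the lowest band it was 0.20 over 30 members and 0.22 over all genes, in the second 0.14 over 50 members and 0.18 over all genes, in the third 0.07 over 48 members and -0.06 over all genes, and in the highest -0.17 over 13 members and 0.05 over all genes. Of the 95% intervals, 111 of 141 lay wholly within 1 log2 unit of no difference.

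**Figure D2:**
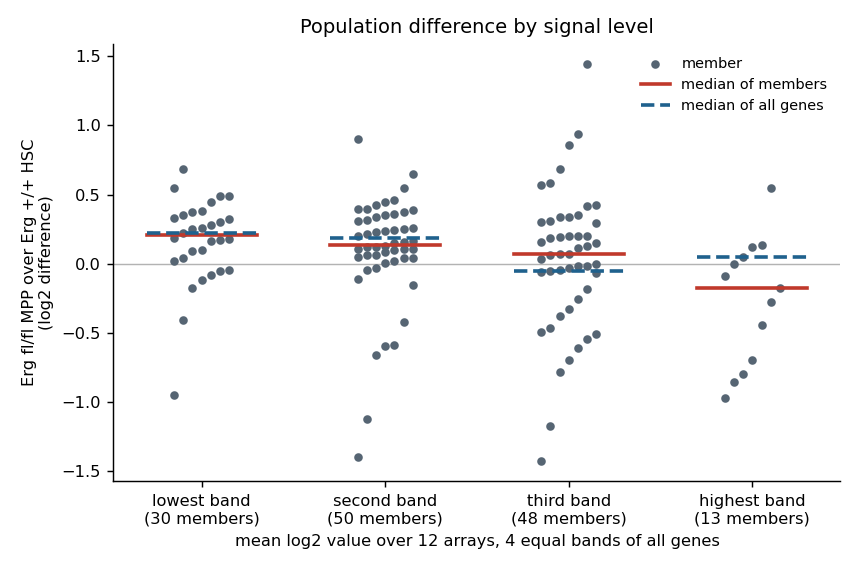
Log2 difference of Erg fl/fl MPPs over Erg +/+ HSCs for each member, in 4 equal bands of mean signal among all genes. Points are members, red bars their median and dashed blue bars the median of all genes. The members' median runs from 0.20 in the lowest band to -0.17 in the highest, which holds 13 members.

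The population difference was also read in the cells with reduced Erg, which share no array with the controls. In Erg -/- MPPs over Erg +/- HSCs, 0 of 141 members passed, against 0.12% of all genes, and 0 had an unadjusted p under 0.05, against 3.85% of all genes. The groups did not overlap for 35 members, 27 higher and 8 lower, against 20.1% of all genes (14.7% higher and 5.47% lower). A positive difference was found for 93 members (66%, against 59.9% of all genes), and 4 differed by more than 0.5 in either direction (2.84%, against 12.3% of all genes). In bands of signal from lowest to highest, 88.1%, 71%, 40.1% and 40.4% of all genes were positive. Of the 40 members with an unadjusted p under 0.05 between the controls, 35 (87.5%) had the same sign here, against 1987 of 2226 genes in all (89.3%). The sizes are not compared, since the 40 were chosen for their p between the controls.

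Among the members of smallest p in that comparison, none passed (adjusted p = 0.446 or above). Foxj3, Gata5 and Zbtb24 were also among the leading members between the controls. The higher ones were Hoxa11 (0.54) and Hoxa13 (0.49), known from limb and urogenital patterning, Klf15 (0.46), a regulator of glucose and amino acid metabolism, Sox9 (0.49), the cartilage and testis factor, Hoxd4 (0.45), Gata5 (0.39), Hoxc12 (0.38) and Foxd3 (0.30), a neural crest factor. Sox9 measured 6.25, 6.53 and 6.28 in Erg -/- MPPs, and 5.99, 5.83 and 5.78 in Erg +/- HSCs. Those groups did not overlap, and the Erg -/- MPP arrays were also above all Erg fl/fl MPP arrays, at 5.49, 5.95 and 6.09. The lower ones included Foxj3 (-0.53), which had the same sign between the controls, Tcf7l1 (-0.43), a repressor of Wnt targets, Nr2f6 (-0.37), Zbtb4 (-0.37), which binds methylated DNA, and Tcf20 (-0.34).

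Read by family, all 3 Gata members (Gata1, Gata4 and Gata5, named here because the family is small) were higher in Erg fl/fl MPPs than in Erg +/+ HSCs, at 0.31 to 0.65, and in Erg -/- MPPs than in Erg +/- HSCs, at 0.18 to 0.39, under all 3 scalings, and none passed. Gata1 and Gata5 lie in the second band of signal, where 68.9% and 71% of all genes were positive in these comparisons. Gata4 lies in the third, where 45% and 40.1% were. With 3 members, nothing is read from their count. As deposited, 2 of the 3 Gata members were higher and 1 lower in Erg -/- MPPs than in Erg fl/fl MPPs. Gata1, the erythroid and megakaryocyte factor, measured 5.83, 6.11 and 6.00 in Erg -/- MPPs, 5.79, 6.00 and 5.91 in Erg fl/fl MPPs, 5.72, 6.30 and 5.39 in Erg +/- HSCs, and 5.56, 5.51 and 5.47 in Erg +/+ HSCs. The Erg +/+ HSC arrays were the lowest apart from 1 Erg +/- HSC array. Of the 28 Zbtb members, 16 were higher and 12 lower in Erg fl/fl MPPs than in Erg +/+ HSCs (median 0.04), a balance that stayed at 16 and 12 after repeated quantile normalisation and turned to 10 and 18 with centred arrays. In Erg -/- MPPs over Erg +/- HSCs 10 were higher and 18 lower (median -0.06), which became 13 and 15 after repeated quantile normalisation and 8 and 20 with centred arrays.

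The Hox genes, which lie in 4 clusters and are used in order along the body axis and in blood, did not move as 1 group. In Erg fl/fl MPPs over Erg +/+ HSCs the 8 cluster D members had 7 positive differences (median 0.29) and the 6 cluster C members had 6 (median 0.34), which became 5 of 8 and 4 of 6 after repeated quantile normalisation. All 14 lie in the lowest or second band of signal, where 80.8% and 68.9% of all genes were positive in this comparison, and nothing is read from their counts. Cluster D here includes the opposite-strand transcript Hoxd3os1, and cluster A the antisense transcript Hoxaas2. Cluster A, which holds the Hox genes best known in HSCs, had 3 positive and 4 negative differences there (median -0.09), and 2 and 5 after repeated quantile normalisation. The 2 cluster B members, Hoxb4 and Hoxb7, were both slightly negative as deposited and both positive after that step. None of the Hox members passed in any comparison.

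**Figure D3:**
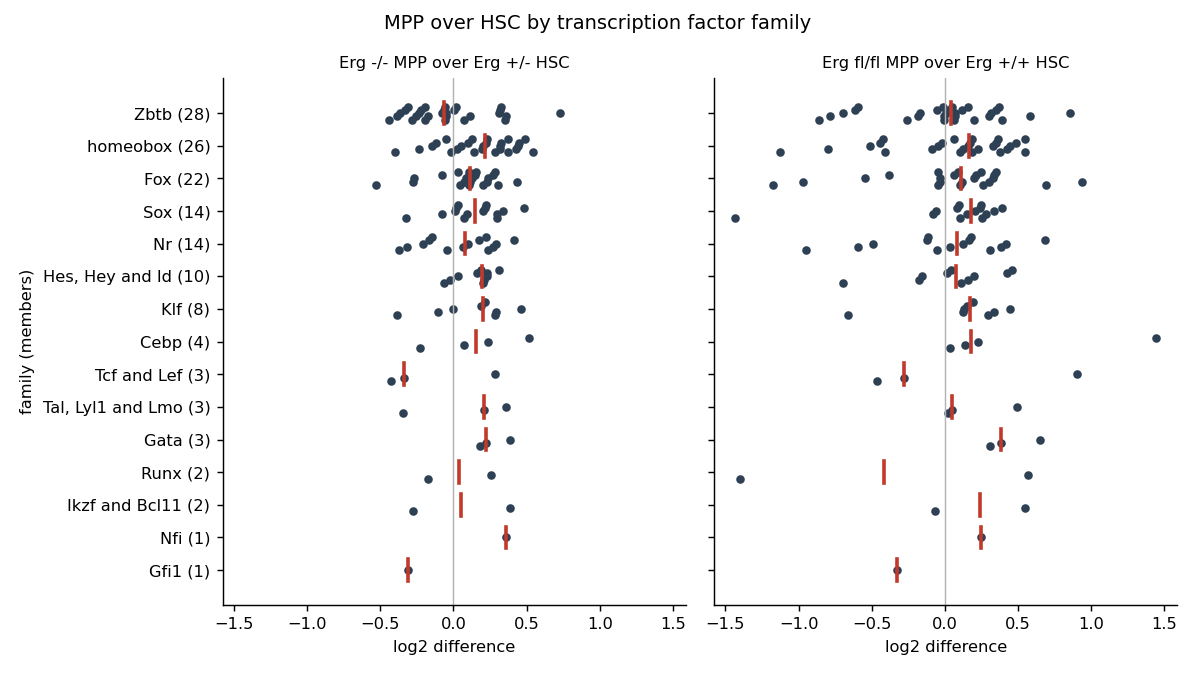
Log2 difference of MPPs over HSCs for each member by family, in cells with reduced Erg (left) and in controls (right). Points are members and red bars family medians, with the number of members in brackets. The wide negative values of the right panel, Sox18 and Runx1t1 at -1.43 and -1.40, are at 0.02 and -0.18 in the left panel. Both are named for their values in the right panel, so the sizes are not compared.

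Loss of Erg from MPPs changed 0 of 141 members, against 0.0801% of all genes, and the smallest adjusted p among them was 0.944. Unadjusted p-values under 0.05 were found for 6 members, 4 higher and 2 lower in Erg -/- MPPs, against 4.79% of all genes (1.21% higher and 3.58% lower). The groups did not overlap for 13 members, 9 higher and 4 lower, against 10.5% of all genes (4.36% higher and 6.1% lower). Differences of more than 0.5 were found for 6 members (4.26%, against 7.25% of all genes), and positive ones for 87 (61.7%, against 49.4% of all genes), a count of 101 after repeated quantile normalisation (71.6%, against 58.1% of all genes) and 98 after centring (69.5%, against 54.6%). The positive share also depended on signal. In the 4 bands from lowest to highest, 21 of 30, 34 of 50, 26 of 48 and 6 of 13 members were positive. Of all genes in these bands, 63.7%, 59.6%, 45.9% and 28.4% were positive, so the share over all genes is not matched to the members' signal. The members' share was the higher in each band, and the direction of the set was not tested. The count of members passing was 0 under each of the 16 alternative settings, and 134 of 141 intervals lay within 1 log2 unit of no difference. The intervals of Cebpa, Hoxa10, Hoxa2, Runx3 and Zbtb6 were among the 7 that reached further.

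Hoxa10, a homeobox factor of stem and progenitor cells, had the smallest p. It measured 7.13, 7.52 and 7.29 in Erg -/- MPPs, 6.63, 6.51 and 6.93 in Erg fl/fl MPPs, 6.96, 7.53 and 7.08 in Erg +/- HSCs, and 6.88, 7.28 and 7.22 in Erg +/+ HSCs. Erg -/- MPPs overlapped with both HSC groups, and the Erg fl/fl MPP arrays were lower, with 1 of them above the lowest HSC array. The difference between the MPP groups was 0.63 (95% interval 0.19 to 1.07, unadjusted p = 0.00886) and did not pass (adjusted p = 0.944). With Hoxa10, 6 of the 7 cluster A members had a positive difference in Erg -/- MPPs (median 0.29), against 49.4% of all genes. It was 7 of 7 under both other scalings, which also raised the share of all genes. Of the 7, 2 lie in the lowest band of signal and 2 in the second, where 63.7% and 59.6% of all genes were positive. The other 3 lie in the highest, where 28.4% were. The positive members included Hoxa4 at 0.29, whose groups did not overlap, and Hoxa2, a hindbrain factor, at 0.76, whose groups did.

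Runx3, a Runx factor of cytotoxic T cells and NK cells, was the lowest in difference. It measured 6.63, 6.46 and 6.48 in Erg -/- MPPs, 7.53, 7.11 and 7.30 in Erg fl/fl MPPs, 6.16, 5.82 and 6.82 in Erg +/- HSCs, and 6.24, 7.38 and 6.63 in Erg +/+ HSCs. All Erg -/- MPP arrays lay under all Erg fl/fl MPP arrays and within the range of both HSC groups. Its difference in Erg -/- MPPs was -0.79 (95% interval -1.43 to -0.15, unadjusted p = 0.019). Of 11 listed T and NK cell genes 2 were measured. Nkg7, a granule gene, averaged 5.90 in Erg -/- MPPs, 8.95 in Erg fl/fl MPPs, 6.96 in Erg +/- HSCs and 7.17 in Erg +/+ HSCs. Cd3d, which defines T cells, averaged 3.71 to 3.73 in the 4 groups and lay below the 25th percentile of each of the 12 arrays. The part of cells with Nkg7 in the values of Runx3 was not tested.

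Among the other higher members in Erg -/- MPPs, Id1, an inhibitor of basic helix-loop-helix factors that BMP signals induce, stood at 0.38, Sox9 at 0.51, Sox18 at 0.50, Foxd2 at 0.39 and Klf4, known from monocytes and reprogramming, at 0.30. On the lower side were Zbtb6 at -0.56, Cebpa at -0.65, Zbtb10 at -0.42, Zbtb18 at -0.40, Ikzf2, the lymphoid factor Helios, at -0.36, Lef1 at -0.29 and Zbtb44 at -0.28. Lef1 had no value shared between its MPP groups, while Cebpa did, because its highest Erg -/- MPP array exceeded all Erg fl/fl MPP arrays. With 1 array left out the Cebpa difference lay between -1.10, without Erg -/- MPP replicate 2, and -0.32, without Erg -/- MPP replicate 1, and its adjusted p was 0.381 or above. Of the 16 members named by p in this comparison, 9 moved by more than 1.5 times when 1 array was left out: Cebpa, Hoxa2, Hoxa4, Ikzf2, Sox9, Zbtb6, Zbtb10, Zbtb18 and Zbtb44. Their smallest values included 0.40 for Hoxa2, -0.34 for Zbtb6, -0.23 for Zbtb10 and -0.14 for Zbtb44.

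**Figure D4:**
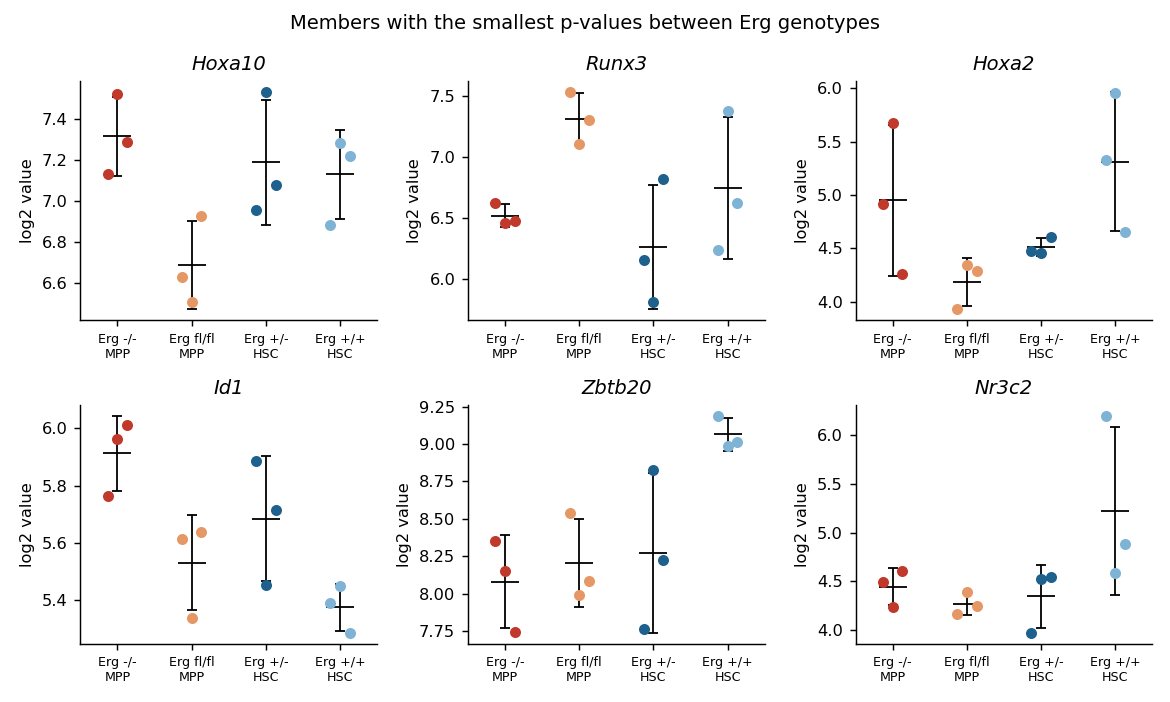
Log2 values of Hoxa10, Runx3, Hoxa2, Id1, Zbtb20 and Nr3c2 on each array, by group (n = 3 each). Points are arrays, the wide bar is the group mean and whiskers are the SD. Hoxa10 and Runx3 have no value shared between the MPP groups, and Zbtb20 has none shared between the HSC groups.

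Loss of 1 Erg allele in HSCs also changed 0 of 141 members, against 0.02% of all genes, and the smallest adjusted p was 0.318. Unadjusted p-values under 0.05 were found for 11 members, 3 higher and 8 lower in Erg +/- HSCs, against 6.32% of all genes (2.73% higher and 3.59% lower). The groups did not overlap for 18 members, 9 in each direction, against 10.4% of all genes (6.06% higher and 4.38% lower). Positive differences were found for 84 members (59.6%, against 53.8% of all genes), and differences of more than 0.5 for 11 (7.8%, against 9.09% of all genes). In bands of signal from lowest to highest, 59.3%, 60.1%, 48.4% and 47.4% of all genes were positive. Of the 95% intervals, 125 of 141 lay within 1 log2 unit of no difference.

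The largest differences in size between the HSC genotypes were those of Runx1t1 and Sox18. Runx1t1 stood at -1.14 in Erg +/- HSCs (95% interval -1.69 to -0.58, adjusted p = 0.318) and Sox18 at -0.96 (95% interval -1.46 to -0.46, adjusted p = 0.400). The Erg +/+ HSC arrays are shared with the comparison of control populations, so the HSC values are not a separate observation of the fall seen there. Zbtb20 measured 7.76, 8.83 and 8.23 in Erg +/- HSCs, and 9.19, 8.99 and 9.02 in Erg +/+ HSCs, a difference of -0.79 (adjusted p = 0.670). Its HSC groups did not overlap, with the Erg +/+ arrays the closer together.

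Nr3c2, the mineralocorticoid receptor gene, measured 3.97, 4.52 and 4.54 in Erg +/- HSCs, against 6.20, 4.58 and 4.88 in Erg +/+ HSCs. The groups did not overlap, and 1 Erg +/+ array stood far above the rest. The difference was -0.88, and without Erg +/+ replicate 1 it was -0.39. Hoxa2 stood at -0.80, Foxo4 at -0.67, Zbtb10 at -0.62 and Hoxd3 at -0.36. The higher members were Zbtb11os1 (0.53), an opposite-strand transcript, Nr4a2 (0.51), an orphan receptor induced by acute signals, Zbtb42 (0.51), Nr1h3 (0.47), the oxysterol receptor, Cebpe (0.41), a factor of late granulocytes, Foxn2 (0.41), Foxl1 (0.36) and Id1 (0.31). With 1 array left out, 9 of these 16 named members moved by more than 1.5 times, Nr3c2 among them. Foxo4 then came as near to no difference as -0.31, Hoxa2 as -0.48, Zbtb42 as 0.22, Foxn2 as 0.18, Cebpe as 0.21, Nr1h3 as 0.25, Nr4a2 as 0.31 and Zbtb11os1 as 0.33.

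Only Id1 had groups that did not overlap in the same direction in both genotype comparisons, which share no array. Id1 measured 5.76, 5.96 and 6.01 in Erg -/- MPPs, 5.61, 5.34 and 5.64 in Erg fl/fl MPPs, 5.89, 5.45 and 5.71 in Erg +/- HSCs, and 5.39, 5.45 and 5.29 in Erg +/+ HSCs. The lowest Erg +/- HSC array exceeded the highest Erg +/+ HSC array by less than 1 unit in the second decimal of these values. Over all genes 78 had such a pattern. Sox18 was the 1 member with groups apart in opposite directions, higher in Erg -/- MPPs and lower in Erg +/- HSCs, as were 31 genes in all.

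**Figure D5:**
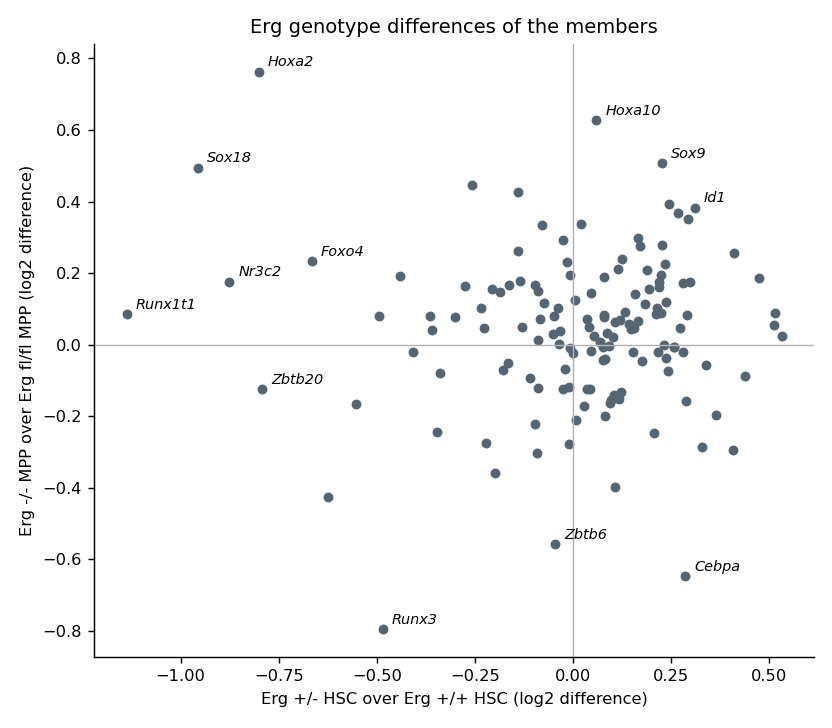
Log2 difference of Erg -/- MPPs over Erg fl/fl MPPs (vertical axis) and of Erg +/- HSCs over Erg +/+ HSCs (horizontal axis) for the 141 members, one point each. Sox18 and Hoxa2 lie upper left and Runx1t1 furthest left at -1.14, while Hoxa10 at 0.63 and Runx3 at -0.79 are set apart on the vertical axis.

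The difference between these genotype differences, in MPPs minus that in HSCs, passed for 0 of 141 members, against 0.02% of all genes, and 7 had an unadjusted p under 0.05, 5 higher and 2 lower, against 3.88% of all genes (1.43% higher and 2.44% lower). Sox18 had the smallest p, with 1.45 (95% interval 0.74 to 2.16, adjusted p = 0.377). Runx1t1 followed at 1.22 (adjusted p = 0.907), and Hoxa2 at 1.56 (95% interval 0.49 to 2.64, unadjusted p = 0.00803). On the other side Foxn2 stood at -0.70 and Lef1 at -0.62. By construction the same numbers give the population difference in cells with reduced Erg minus that in controls. Positive values were found for 63 of 141 members (44.7%, against 46.1% of all genes), and for 79 after repeated quantile normalisation (56%, against 53.1%), so no direction of the set is given.

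Genes that act upstream of the members, or on which they act, mostly did not pass. Of the Notch pathway genes upstream of Hes and Hey members 11 of 28 listed were measured, of the Wnt pathway genes that meet Tcf and Lef members 16 of 32, of cofactors 9 of 30 and of nuclear receptors with other symbols 7 of 22, and 0 of each passed in any of the 5 comparisons. In Erg fl/fl MPPs over Erg +/+ HSCs the smallest p-values in these lists belonged to the Notch ligand gene Dll1 at 0.57, the corepressor gene Tle4 at -0.79, Mbd3, of the NuRD repressor complex, at -1.004, and the retinoid X receptor gene Rxra at -0.82. Among 14 of 27 BMP and TGF-beta genes, upstream of the Id members, Eng, a TGF-beta coreceptor of HSCs and vessels, fell by 3.61 in Erg fl/fl MPPs against Erg +/+ HSCs and fell by 3.84 in Erg -/- MPPs against Erg +/- HSCs (adjusted p = 2.13e-07 and 7.61e-08). No Id member passed in either comparison. The list's median was -0.24 and -0.19, against 0.12 and 0.10 over all genes.

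Among early lymphoid and B lineage genes, 10 of 20 listed were measured, Lef1 being 1 of them. In Erg fl/fl MPPs over Erg +/+ HSCs 5 rose and 0 fell: the cytokine receptor gene Flt3 by 2.57, the surrogate light chain genes Vpreb1 by 3.00 and Igll1 by 2.39, the B cell factor gene Ebf1 by 1.49, and Lef1. In Erg -/- MPPs against Erg fl/fl MPPs Vpreb1 fell by 4.75 and Igll1 fell by 1.88, while Lef1, at -0.29, did not pass. Flt3 also rose by 4.42 in Erg -/- MPPs over Erg +/- HSCs (adjusted p = 5.42e-07), and Igll1 passed in the difference of the genotype differences, at -2.03 (adjusted p = 0.0157). Of 20 granulocyte-macrophage genes, listed for the lineage of Cebpa and Cebpe, 3 were measured. Among them Nkg7, a granule gene of cytotoxic and myeloid cells, fell by 3.05 in Erg -/- MPPs (adjusted p = 0.0274). Its fall is not read as a measure of Cebpa or Cebpe activity, which was not tested. Vpreb1 and Igll1 are also in the B cell marker list and Nkg7 in that of T and NK cells, and the lists were chosen with results of these arrays known.

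Erythroid genes, targets of Gata1 and Klf1, had 11 of 19 listed genes measured and 0 passed in any comparison. In Erg -/- MPPs over Erg fl/fl MPPs 10 of 11 differences were positive (median 0.39, against -0.00395 over all genes), and in Erg +/- HSCs over Erg +/+ HSCs 9 of 11 (median 0.63, against 0.02). Klf1, the erythroid Klf factor, measured 5.39, 5.97 and 5.85 in Erg -/- MPPs, 5.53, 5.55 and 5.99 in Erg fl/fl MPPs, 5.96, 5.83 and 5.74 in Erg +/- HSCs, and 5.15, 5.92 and 5.63 in Erg +/+ HSCs. Its groups overlapped in both comparisons. The mean of 4 erythroblast genes of 7 listed was 6.74 to 7.94 in Erg -/- MPPs, 6.34 to 7.01 in Erg fl/fl MPPs, 7.14 to 7.54 in Erg +/- HSCs and 5.92 to 6.86 in Erg +/+ HSCs, and the part of such cells was not tested. Klf1 and Gata1 are named here as the factors that give the list its name. Of 6 megakaryocyte genes of 15 listed, Mmrn1, a platelet granule protein gene also high in HSCs, fell by 4.30 in Erg fl/fl MPPs against Erg +/+ HSCs and fell by 4.84 in Erg -/- MPPs against Erg +/- HSCs.

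Within groups, some members varied together. Over the 12 arrays, after the group means were removed, the highest of 9870 correlations between pairs of members were those of Hoxd12 with Hoxd4 (r = 0.948), Heyl with Hoxd9 (r = 0.946) and Klf14 with Pbx4 (r = 0.945). The lowest were Hoxd13 with Nr6a1 (r = -0.952), Foxd1 with Ikzf2 (r = -0.933) and Foxn2 with Id2 (r = -0.929). These pairs share the same arrays, are the extremes of many, and are given as a description with no test.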

How the data were processed

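Total RNA of sorted cells was amplified, labelled and hybridised to 1-colour expression arrays, per the labels' protocols. The deposited table holds log2 values made by the authors with RMA in the affy package, per the submitters' processing notes. Versions, and whether the arrays were normalised together, are not given in the sources used here. Of 18719 probe sets, 10657 had 1 gene symbol in the platform annotation, 523 had several and 7539 were not listed. A gene with several probe sets was represented by that of highest mean, leaving 9984 genes, and 2 of the 141 members had more than 1. Annotation may be old, and all 141 members matched RefSeq by gene ID. No low-signal filter was applied in the reported fit.

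Groups came from the labels. A model with 1 mean per group over 12 arrays was fitted with limma 3.58.1 in R 4.3.3 (8 residual and 4.35 prior degrees of freedom), and p-values were adjusted over all 9984 genes. The procedure was tested on simulated data. Members and lists were chosen with earlier results of these data known, so no list was tested as a whole. Text names per comparison each member that passed, then up to 8 higher and 8 lower by p. Also named are, per pathway list, each gene that passed in a comparison, otherwise the 1 of smallest p. Alternatives were filters at the 25th and 50th percentile, averaging probe sets, repeated quantile normalisation, median centring, trend and robust moderation, array weights, a replicate block, fits on the compared arrays alone, and each array left out. Leaving out together the 2 arrays of lowest weight was chosen after seeing the data. The number of arrays, 3 a group, limits precision.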

Additional observations from a re-analysis of the deposited data

How the results depend on the processing

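All 1316 recomputed differences of the named members kept their direction, with 17 losing and 8 gaining a pass. The replicate block, the signal filters, trend and robust moderation, and fits on the compared arrays alone leave each difference itself unchanged. Direction could not turn under those settings, and the named members were chosen for small p-values. The count of members passing was 0 under every alternative run for Erg +/- over Erg +/+ HSCs, Erg -/- over Erg fl/fl MPPs, Erg -/- MPPs over Erg +/- HSCs and the difference of the genotype differences. For Erg fl/fl MPPs over Erg +/+ HSCs it was 3, against 1 (Cebpa) when only those arrays were fitted and 0 to 2 with 1 array left out. It was 4 with the filter at the 25th percentile or with trend and robust moderation (Cebpa added) and with array weights (Foxo4 added), and after repeated quantile normalisation it was 3 with Foxn2 in place of Lef1. Sox18 passed in 14 of 16 alternatives, Runx1t1 in 9 of 15 and Lef1 in 6 of 15. The members' median of 0.12 there was 0.0310 above the 50th percentile of signal, where 61 members remain, 0.0399 after repeated quantile normalisation and 0.0230 after centring. In Erg -/- MPPs over Erg +/- HSCs the median of 0.11 was -0.00486 above the 50th percentile. For the difference of differences the median of -0.03 lay between -0.0783 and 0.0491 with 1 array left out, the last without Erg fl/fl MPP replicate 3. The causes were not tested. Without the 2 arrays of lowest weight (Erg fl/fl MPP replicate 1 and Erg +/+ HSC replicate 1) 2 members passed, Sox18 and Foxo4. The labels do not say whether replicate numbers pair the samples. Deviations of same-numbered arrays correlated at -0.0852 to 0.104, which cannot settle it, since arrays of different number were not read beside them. With the replicate number as a block 2 members passed between the controls, Sox18 and Runx1t1, with Lef1 at an adjusted p of 0.0611. Of the 141 members, 30 lie in the lowest of 4 equal bands of signal, and background levels were not used here.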
